A study of Mus musculus with 2 samples.

Results

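Most chaperones of the endoplasmic reticulum (ER) read higher in sheared than in control mouse tendon cells, while the single spot of Atf6, a sensor of unfolded proteins in the ER, read lower. The group holds 10 genes, chosen by symbol: Atf6, Hspa5, Hsp90b1, Calr, Pdia3, Pdia6, Manf, Dnajb9, Sdf2l1 and Creld2. All 10 were measured on both arrays, among 10793 genes with a name on either array. At 12 h of shear, 7 of them stood at least 1.5-fold above control, as did 24.4% of all genes, and 1 stood at least 1.5-fold below it, as did 33.1%. At 6 h, 3 stood above, as did 18.2% of all genes, and 1 below, as did 31.3%. Manf had the highest 12 h value of the group, 2.69-fold. The median of the group was log2 0.81 at 12 h and 0.46 at 6 h, and Hsp90b1 stood near 0 on both arrays. These values are relative to the median of each array, and without that centring Manf alone was at least 1.5-fold higher at 12 h and none of the group was at 6 h.

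The study applied mechanical shear to flexor tendon cells, and its data are 2 two-colour spotted arrays. One array set RNA of cells sheared for 12 h at 50 rpm (Cy5) against RNA of control tenocytes at 12 h (Cy3), and the other set pooled sheared cells at 6 h (Cy5) against pooled control cells at 6 h (Cy3). Tenocytes are the fibroblast-like cells of tendon. The speed is labelled for the 12 h sample and pooling for the 6 h sample, and the labels used here give no strain, age, sex or tendon of origin and no number of cultures. Each time point has 1 array and the dyes were not swapped, so there is no replicate check, no p-value can be given, and higher and lower describe these 2 arrays. In bulk RNA, fewer cells of a type and less RNA per cell cannot be told apart.

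Values are log2 ratios, taken as sheared over control, after the median of all spots of an array was subtracted. The log base of 2 is an assumption, and sheared over control is the likely direction because the labels put sheared RNA in Cy5. The subtracted medians were -0.48 at 12 h and -0.32 at 6 h, and without this step every value is lower by that amount. There were 41717 spots measured at 12 h and 39776 at 6 h, and a gene's value is the median of its spots with 1 gene symbol. The only error at hand is the spread between spots of one gene, with a pooled SD of 0.855 at 12 h and 0.738 at 6 h, which covers clones and spots but not cultures. The arrays hold ratios only, so the level of a gene in these cells is not known. Of 10 tendon markers, Scx, Tnmd, Mkx, Lum and Thbs4 were not measured here. The other 5 had a median of 0.53 at 12 h (2 higher, 1 lower) and 0.43 at 6 h (1 higher, 0 lower). Of 7 leukocyte markers, 6 were measured, most on 1 spot, with a median of 0.80 at 12 h (3 higher, 2 lower) and 0.42 at 6 h (1 higher, 2 lower). Without centring the leukocyte medians were 0.32 and 0.09, and the tendon medians 0.05 and 0.11. Medians at 12 h and 6 h were -0.565 and -0.25 for endothelium (3 genes) and -0.36 and -0.69 for epithelium (6 genes). They were -0.73 and -1.88 for cartilage and bone (2 genes), and 0.19 and 0.36 for muscle (2 genes). The part of these cell types in the results was not tested.

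Secreted and membrane proteins, procollagen among them, fold in the ER with the help of chaperones and of enzymes that form disulfide bonds. When unfolded proteins build up, Atf6 travels from the ER to the Golgi, is cut there by the Mbtps1 and Mbtps2 proteases, and its freed fragment enters the nucleus. Together with the factor NF-Y it then binds the ER stress response element in the promoters of chaperone genes. Atf6 is thus switched on by cleavage of the protein, which an array of RNA does not measure.

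The promoters of these genes are shown because 5 of them carry that element. Promoters, taken as 250 bases before to 50 after the start, were found in RefSeq (GRCm38.p6) for 8 of the 10 genes; Atf6 and Manf had no entry in the table used. The element was searched on both strands as a CCAAT block, any 9 bases and a CCACG block. It occurred in Hspa5, Hsp90b1, Calr, Pdia6 and Creld2, against 39 of all 32851 promoters of the table, or 0.119%. The group is largely ER chaperones and the element is known from chaperone promoters, so this share is a description and not a test. Below, the gene strand of each window is given 5′ to 3′, upstream of the start only, and capitals mark the fixed bases of the element, which read CGTGG and ATTGG where the match lies on the opposite strand.
Hspa5, chr2:34771985-34772083, plus strand: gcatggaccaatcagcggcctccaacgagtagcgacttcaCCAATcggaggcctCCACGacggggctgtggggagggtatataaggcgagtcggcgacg
Hsp90b1, chr10:86705493-86705694, minus strand: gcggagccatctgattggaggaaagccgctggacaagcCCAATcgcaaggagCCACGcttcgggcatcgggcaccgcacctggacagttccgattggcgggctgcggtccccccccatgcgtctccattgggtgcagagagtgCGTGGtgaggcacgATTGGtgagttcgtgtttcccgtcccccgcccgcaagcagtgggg
Calr, chr8:84847035-84847133, minus strand: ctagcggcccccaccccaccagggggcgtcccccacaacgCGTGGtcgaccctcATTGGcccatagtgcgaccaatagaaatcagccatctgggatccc
Pdia6, chr12:17266451-17266549, plus strand: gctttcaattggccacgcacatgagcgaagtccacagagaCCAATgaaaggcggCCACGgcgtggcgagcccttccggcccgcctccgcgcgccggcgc
Creld2, chr15:88819480-88819578, plus strand: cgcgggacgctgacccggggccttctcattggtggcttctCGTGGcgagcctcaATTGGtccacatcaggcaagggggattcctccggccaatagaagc

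Hsp90b1 held the element at 2 places, its nearest bases 194 and 89 bases upstream of the start, and the other 4 genes held it once. Its nearest base lay 47 bases upstream in Hspa5, 80 in Pdia6, 108 in Creld2 and 144 in Calr. Pdia3, Dnajb9 and Sdf2l1 had no match in this window. The CCAAT block alone occurred in all 8 promoters (37.4% of all promoters) and the CCACG block alone in 7 (32.8% of all promoters). Neither a further form of the element, in which any 1 base parts ATTGG from CCACG (0.0365% of all promoters), nor TGACGTGG, a site bound by ATF6 and XBP1 (0.676%), was found in the 8. These motifs overlap in part, since ATTGG and CGTGG are the blocks CCAAT and CCACG read on the other strand. The map of matches shows where the elements lie.

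**Figure D1:**
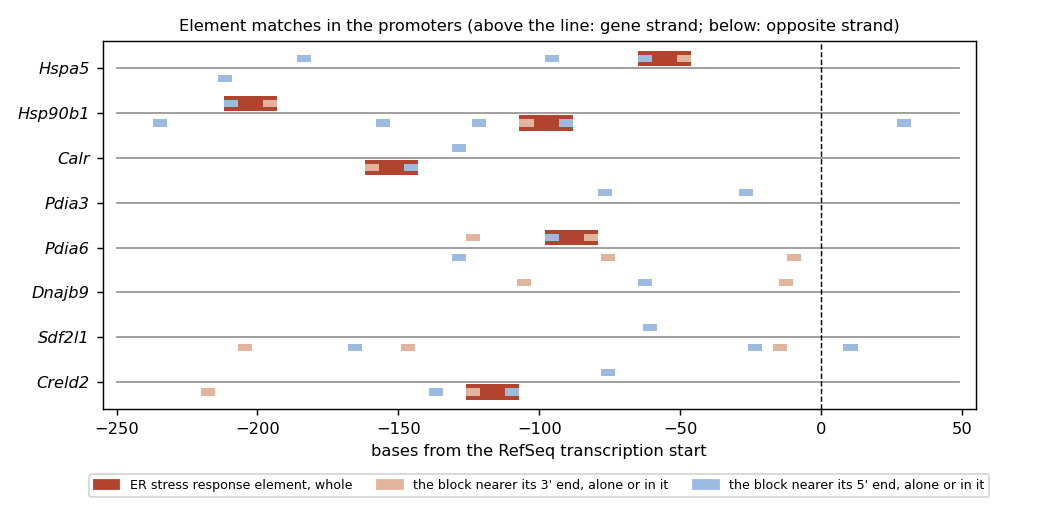
Matches to the ER stress response element (red) and to its blocks (pale) in the 8 promoters, by distance in bases from the RefSeq start (dashed line); matches on the gene strand are drawn above each line and those on the opposite strand below it. Hspa5, Hsp90b1, Calr, Pdia6 and Creld2 hold the whole element, and it lies upstream of the start in each.

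Hspa5 encodes BiP, the abundant Hsp70 chaperone of the ER, which also holds the stress sensors inactive. Its 10 spots ran from 0.22 over a median of 0.56 to 0.93 at 12 h, and from -0.12 over a median of 0.63 to 0.96 at 6 h. All 10 spots lay above 0 at 12 h and 9 of 10 at 6 h, with a probe SD of 0.19 at 12 h and 0.29 at 6 h. The gene stood 1.47-fold above control at 12 h, just short of the 1.5-fold used here to call a gene higher, and 1.55-fold above it at 6 h. Hspa5 thus lay close to that limit on both arrays.

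Hsp90b1, known as Grp94, is the Hsp90 chaperone of the ER and folds integrins and other surface receptors. Its spots ran from -0.33 over a median of -0.13 to 2.03 at 12 h (7 spots) and from -0.31 over a median of -0.06 to 0.99 at 6 h (8 spots). Only 2 of 7 spots lay above 0 at 12 h and 3 of 8 at 6 h. The gene had the largest probe SD of the group after Calr at 12 h, 0.83. Its sign depends on how the spots are combined, since their mean was 0.21 at 12 h and 0.14 at 6 h. One of its clones was spotted at 2 positions, which read 2.03 and -0.21 at 12 h and 0.99 and -0.09 at 6 h.

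Calr, calreticulin, is the soluble lectin that holds newly made glycoproteins until they are folded. Its 3 spots read 1.13, 0.93 and -1.24 at 12 h and, in the same spot order, 0.63, 0.66 and -0.36 at 6 h. The same spot went against the other two on both arrays. The median was 1.90-fold above control at 12 h (probe SD 1.32) and 1.54-fold at 6 h (probe SD 0.58), whereas the mean of the spots was 0.27 at 12 h and 0.31 at 6 h. The call of Calr therefore rests on taking the median.

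Pdia3, or ERp57, is the disulfide enzyme that works with calreticulin on glycoproteins. Its 7 spots ran from -0.24 over a median of 0.94 to 1.37 at 12 h, and from -0.59 over a median of 0.44 to 0.66 at 6 h. On each array 6 of 7 spots lay above 0, and the lowest spot was the same one on both. That spot shares its clone with another position, which read 1.37 at 12 h, the highest of the 7, and 0.15 at 6 h. Pdia3 stood 1.92-fold above control at 12 h (probe SD 0.52) and 1.36-fold at 6 h (probe SD 0.43).

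Pdia6, a further disulfide isomerase, which binds BiP, had 4 spots in close agreement. They read from 0.67 to 0.94 at 12 h and from 0.15 to 0.44 at 6 h, so the arrays did not overlap. The medians were 0.73 at 12 h, or 1.66-fold (probe SD 0.12), and 0.26 at 6 h, or 1.19-fold (probe SD 0.12). The 6 h value turned to -0.07 without centring.

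Dnajb9, known as ERdj4, is a J-domain partner of BiP that helps to clear misfolded proteins and is a well-known target of Xbp1. Its 6 spots ran from 0.81 over a median of 0.93 to 1.11 at 12 h, and from 0.19 over a median of 0.49 to 0.61 at 6 h. Every spot of the 12 h array lay above every spot of the 6 h array. The gene stood 1.90-fold above control at 12 h (probe SD 0.11) and 1.40-fold at 6 h (probe SD 0.15). It was the most evenly measured gene of the group among those with 5 or more spots on an array.

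Manf, a small ER protein that binds BiP and is secreted when the ER is stressed, stood furthest above control at 12 h. Its 3 spots read 1.46, 1.43 and 1.34 at 12 h, with a probe SD of 0.06, and 0.80, 0.62 and 0.51 at 6 h, with a probe SD of 0.14. The fold was 2.69 at 12 h and 1.53 at 6 h, and 92.4% of all genes lay at or below the 12 h value. The lowest 12 h spot lay above all 10 spots of Hspa5 on that array, the highest of which read 0.93. At 6 h the spots of both genes overlapped.

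The remaining inducible ER proteins were measured with few spots. Sdf2l1, an ER protein that works in complexes with J-domain partners of BiP, had 1 spot, at 0.90 at 12 h and 0.27 at 6 h. Creld2, an ER stress-inducible protein with EGF-like repeats, had 2 spots, at 0.71 and 0.61 at 12 h and at 0.74 and 0.21 at 6 h. Sdf2l1 thus stood 1.86-fold above control at 12 h and 1.21-fold at 6 h, and Creld2 1.58-fold at 12 h (probe SD 0.07) and 1.39-fold at 6 h (probe SD 0.37). Without centring the 6 h value of Sdf2l1 turned to -0.05.

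Atf6 read furthest below control of the 10 genes on both arrays, and Hsp90b1 also lay slightly below 0. The single spot of Atf6 read -1.96 at 12 h and -1.65 at 6 h, or 0.258 and 0.319 times the control. At 12 h 5.75% of all genes lay at or below this value, and at 6 h 7.96%. Of genes with a single spot, 39.1% were at least 1.5-fold lower at 12 h and 39.6% at 6 h, against 33.1% of all genes at 12 h and 31.3% at 6 h. With 1 spot the value has no check within its array, and the pooled probe SDs of 0.855 and 0.738 are the only guide to its error.

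**Figure D2:**
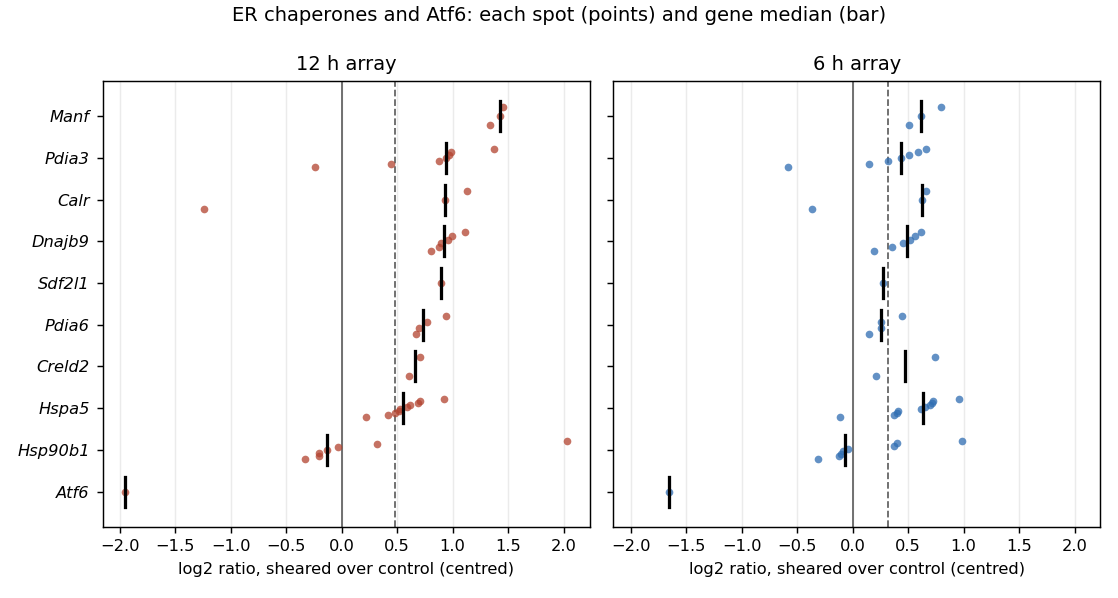
Centred log2 ratio of sheared over control for each spot (points) and the median of each gene (black bars) on the 12 h array (left) and the 6 h array (right), with genes ordered by their 12 h median; the solid line marks the array median and the dashed line a deposited ratio of 0. Manf, Dnajb9 and Pdia6 have tight spots to the right of 0, Hsp90b1 straddles 0 with 1 spot at 2.03 at 12 h, and Atf6 rests on 1 spot at -1.96 at 12 h and -1.65 at 6 h.

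Read against all genes, the share of the group called higher was larger at 12 h than at 6 h. At 12 h the 7 genes at least 1.5-fold higher were Manf, Pdia3, Calr, Dnajb9, Sdf2l1, Pdia6 and Creld2, or 70% of the group against 24.4% of all genes. At 6 h they were Hspa5, Calr and Manf, or 30% against 18.2% of all genes. Calr and Manf were higher on both arrays, as were 13.8% of all genes. Atf6 was the gene called lower on each array, where 33.1% of all genes were called lower at 12 h and 31.3% at 6 h. The median of all genes was -0.14 at 12 h and -0.11 at 6 h, against 0.81 and 0.46 for the group. Among genes with 3 or more spots, which 7 of these 10 genes are, the share called higher was 32.9% at 12 h and 23.9% at 6 h, against 5 of the 7 at 12 h and 3 of the 7 at 6 h.

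These counts depend on the centring. On each array 8 of the 10 genes lay above 0 after centring, and without it 8 did at 12 h and 6 at 6 h. Without centring only Manf was called higher at 12 h and none of the group at 6 h, while the share of all genes called higher was 13.4% at 12 h and 8.35% at 6 h. Hsp90b1 and Atf6 were then called lower at 12 h and Atf6 at 6 h, as were 51.5% of all genes at 12 h and 43.7% at 6 h. Over all genes, 2618 were higher and 3550 lower at 12 h with centring, against 1434 and 5527 without it. At 6 h the counts were 1888 and 3235 with centring and 864 and 4527 without it. In size, Manf, Pdia3, Calr, Dnajb9 and Sdf2l1 exceeded 1 pooled probe SD at 12 h, and Atf6 did so downward on both arrays. At 6 h none of the chaperones did.

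In the order of the values, few neighbours were far apart. At 12 h Manf led, followed by Pdia3 (0.94), Calr (0.93), Dnajb9 (0.93), Sdf2l1 (0.90), Pdia6 (0.73), Creld2 (0.66), Hspa5 (0.56), Hsp90b1 (-0.13) and Atf6. At 6 h Hspa5 (0.63), Calr (0.63) and Manf (0.62) led, followed by Dnajb9 (0.49), Creld2 (0.48), Pdia3 (0.44), Sdf2l1 (0.27), Pdia6 (0.26), Hsp90b1 (-0.06) and Atf6. The only gap between neighbours that exceeded the pooled probe SD was that between Hsp90b1 and Atf6, 1.83 at 12 h and 1.59 at 6 h. That SD is the spread of single spots, whereas most of these values are medians of several spots and Atf6 has 1 spot. It is thus a rough guide to the gaps. Across the 10 genes the values of both arrays had a Pearson r of 0.96 and a Spearman rho of 0.50, and without Atf6 the Pearson r was 0.72. The points share their arrays and spot positions, and across all 10288 genes on both arrays the Pearson r was 0.66.

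**Figure D3:**
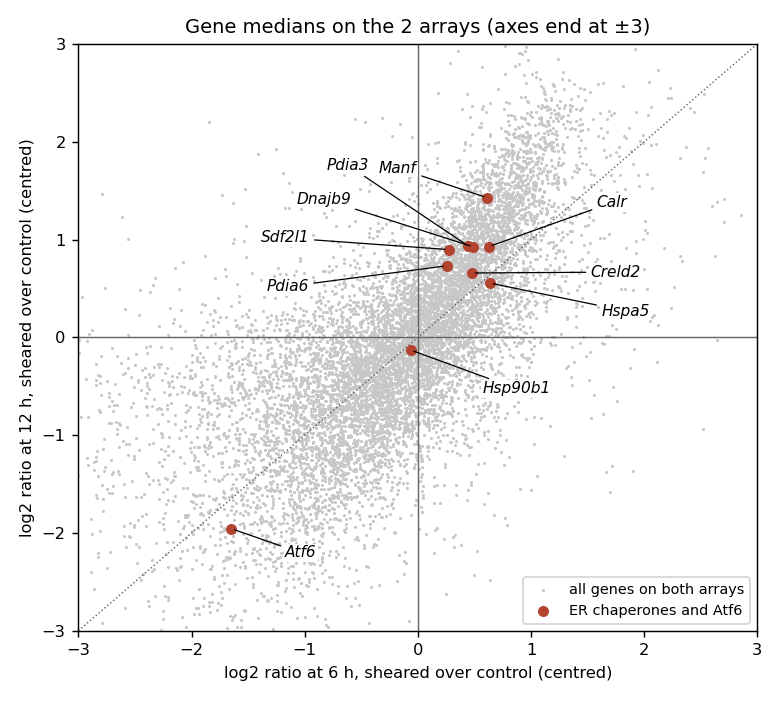
Centred log2 ratio of each gene at 12 h (vertical axis) against 6 h (horizontal axis), with all genes on both arrays in grey, the 10 genes in red and equal values on the dotted line; axes end at 3 in both directions. Manf, Pdia3, Dnajb9, Sdf2l1 and Pdia6 lie above the dotted line, Hspa5 and Hsp90b1 lie close to it, and Atf6 lies far to the lower left.

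The change from one array to the other was compared at the same spot positions, so that each clone serves as its own reference. Of all spots measured on both arrays, 59.7% read higher at 12 h, with a median difference of 0.18. Of the group's 44 such spots, 30 did, or 68.2%, with a median difference of 0.35. Manf was higher at 12 h in 3 of 3 spots, by 0.66 to 0.83. Dnajb9 was higher at 12 h in 6 of 6 spots, by 0.37 to 0.68, and Pdia6 in 4 of 4, by 0.22 to 0.69. These are 3 of the 7 genes with 3 or more spots on both arrays, or 42.9%, and among all 2508 genes of that kind 27% were higher at 12 h in every spot. Pdia3 was higher in 6 of 7 spots, with a median of 0.37.

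The spots of Hspa5 shifted in both directions. Of its 10 spots, 5 read higher at 12 h, 4 lower and 1 the same, where 59.7% of all spots read higher. The median difference was 0.06, with a range of -0.43 to 0.70. Hsp90b1 was higher at 12 h in 2 of 7 spots, with a median of -0.08. Calr was higher in 2 of 3, Creld2 in 1 of 2 and Sdf2l1 in its 1 spot, by 0.63. The Atf6 spot was lower by 0.31 at 12 h, a difference that turned to 0.11 when both arrays were scaled to one spread. Manf and Sdf2l1 were at least 1.5-fold higher at 12 h than at 6 h, as were 24.9% of all genes, and none of the group was 1.5-fold lower, as 17.4% of all genes were. With both arrays scaled to one spread, neither gene passed that limit, Manf at 0.58 and Sdf2l1 at 0.50, and without centring Sdf2l1 stood at 0.47. The pooled SD of such same-spot differences between spots of one gene was 0.740, and Manf alone, at 0.81, exceeded it with centring and without scaling. The arrays have separate control RNA, so a difference between them covers the controls as well.

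**Figure D4:**
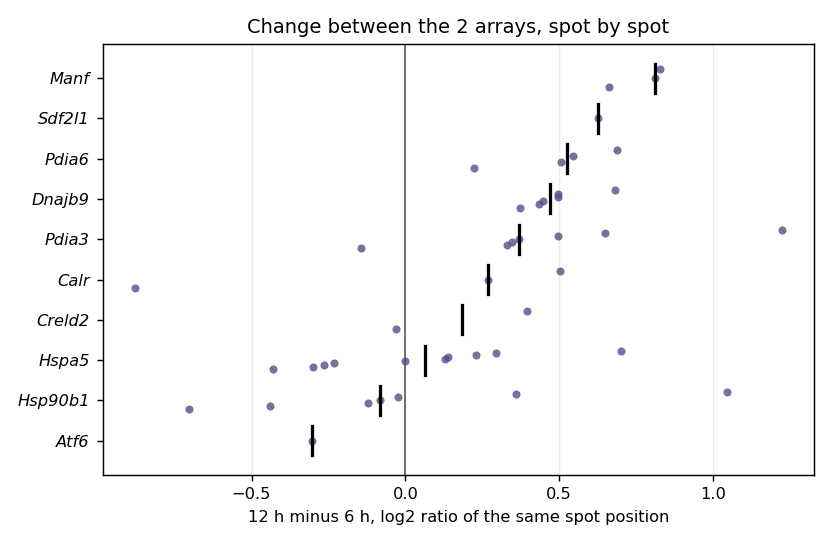
Log2 ratio at 12 h minus that at 6 h for each spot position measured on both arrays (points) and the median of each gene (black bars), with genes ordered by that median. All spots of Manf, Pdia6 and Dnajb9 lie right of 0, the 10 spots of Hspa5 spread on both sides of it, and the Atf6 spot lies left of it.

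Lists of related genes are set here against all genes, of which 24.4% were called higher and 33.1% lower at 12 h, and 18.2% higher and 31.3% lower at 6 h, with medians of -0.14 and -0.11. The list of unfolded protein response sensors, genes that activate Atf6 and related transcription factors had medians below 0, as all genes did. The genes called higher at 12 h, Creb3 and Nfyb, are among the transcription factors. Of 13 genes listed, 10 were measured, with a median of -0.29 at 12 h (2 higher, 4 lower) and -0.16 at 6 h (0 higher, 1 lower). With the mean of spots the 6 h median was -0.01, and without centring 0 were higher and 5 lower on each array. Mbtps1 and Mbtps2, the proteases that cut Atf6, stood at -0.69 (probe SD 0.45, 2 spots) and -1.001 (1 spot) at 12 h and at -0.34 and -0.41 at 6 h. Ern1, the sensor that splices Xbp1 RNA, stood at -1.59 at 12 h and -0.51 at 6 h, over 4 spots that disagreed with SDs of 2.30 and 1.04. Xbp1 itself stood at 0.03 at 12 h (probe SD 0.99) and 0.54 at 6 h (probe SD 0.19). Eif2ak3, the sensor PERK, stood at 0.15 and 0.31, over 2 spots with SDs of 1.70 and 0.57. The arrays do not tell spliced from unspliced Xbp1.

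Among the factors related to Atf6 or working with it, the signs were mixed. Creb3l2, a membrane-bound factor of the same kind that is known for its part in cartilage collagen export, stood at -1.55 at 12 h and -1.30 at 6 h, over 2 spots with SDs of 0.08 and 0.16. Its relative Creb3 stood at 1.03 at 12 h and 0.55 at 6 h over 5 spots with SDs of 0.23 and 0.19. The NF-Y subunits Nfyb and Nfyc stood at 0.79 and -0.51 at 12 h and at 0.52 and -0.33 at 6 h. The factor Yy1 stood at -0.07 and 0.02. The spots of Nfyb and Yy1 disagreed, with SDs of 1.46 and 1.42 at 12 h and 0.52 and 0.76 at 6 h, over 4 spots each. Nfyc had 2 spots, with SDs of 0.06 at 12 h and 0.28 at 6 h. Atf6b, Creb3l1 and Nfya were not measured here.

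Other proteins of the ER lumen read higher in part. Of 21 further ER chaperones and co-chaperones, 17 were measured, with a median of 0.59 at 12 h (9 higher, 2 lower) and 0.19 at 6 h (4 higher, 2 lower), which turned to -0.14 at 6 h without centring. The uncentred counts were 5 higher and 5 lower at 12 h, and 1 higher and 3 lower at 6 h. Sdf2, the constitutive relative of Sdf2l1, stood at 1.89 at 12 h and 0.85 at 6 h, the prolyl isomerase Ppib at 1.74 and 0.88, and Uggt1, the glycoprotein folding sensor, at -1.13 and -1.12 on 1 spot. Of 15 further disulfide enzymes 14 were measured, with a median of 0.60 at 12 h (7 higher, 3 lower) and 0.37 at 6 h (6 higher, 1 lower). Without centring 3 were higher and 3 lower at 12 h, and 0 higher and 2 lower at 6 h, with medians of 0.12 and 0.04. The peroxidase Prdx4 stood at 1.67 at 12 h and 0.65 at 6 h, Erp29 at 1.66 and 0.71 on 1 spot, and the oxidase Ero1b at -0.95 and -1.08 on 1 spot.

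ER-associated degradation, which returns misfolded proteins to the cytosol for destruction, had a median of 0.44 at 12 h (8 of 18 genes higher, 3 lower), or -0.04 without centring, and 0.33 at 6 h (6 higher, 1 lower). Without centring 3 were higher and 7 lower at 12 h, and 4 higher and 3 lower at 6 h. Selenos stood at 1.73 at 12 h and 0.94 at 6 h, the ubiquitin conjugase Ube2g2 at 1.45 and 1.10, and the lectin Os9 at 0.98 and 1.36. The 6 genes of N-glycan trimming had a median of 0.15 at 12 h, or -0.33 without centring, and -0.33 at 6 h. Among them the glucosidase subunit Prkcsh stood at 0.89 and 0.39, Man1a at -1.71 and -0.79, and Man1b1, on 1 spot, at 1.58 at 12 h and -1.14 at 6 h. The KDEL receptor Kdelr2, which brings escaped chaperones back to the ER, stood at 1.001 at 12 h and 0.40 at 6 h (3 spots), and Kdelr1 and Kdelr3 were not measured here.

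Genes of protein import and glycosylation were called higher in most cases. Of 25 genes of the translocon, signal peptidase and oligosaccharyltransferase 23 were measured, with a median of 1.39 at 12 h (18 higher, 0 lower) and 0.69 at 6 h (13 higher, 0 lower). Without centring 14 were higher at 12 h and 6 at 6 h. Ssr4 stood at 2.20 at 12 h and 1.34 at 6 h, Sec61g at 2.18 and 1.10, and Sec61b at 2.07 and 0.99 on 1 spot. Of 6 genes listed as outputs of the PERK arm 5 were measured. They had a median of 1.44 at 12 h (3 higher, 1 lower) and 1.36 at 6 h (4 higher, 0 lower). The name is that of the list, and whether PERK had a part in their values was not tested. Ppp1r15a stood at 2.49 at 12 h and 2.53 at 6 h, Ddit3 at 1.67 and 1.53, and Atf4 at 1.44 and 1.36. The other measured outputs, picked out with their values known, were Trib3, at -0.96 at 12 h and -0.05 at 6 h on 1 spot, and Asns, at 0.21 and 0.99 on 2 spots. For cytosolic and mitochondrial chaperones the median was 1.06 at 12 h (10 of 11 higher) and 1.24 at 6 h (9 of 11 higher), and without centring 5 were higher at 12 h and 8 at 6 h. Hsp90aa1, the cytosolic relative of Hsp90b1, had 12 spots. It stood at 1.66 at 12 h (probe SD 0.49) and 1.55 at 6 h (probe SD 0.69). The J-domain protein Dnajb1 stood at 1.07 at 12 h (probe SD 0.41) and 2.02 at 6 h (probe SD 0.89). Hspe1 stood at 1.97 and 1.07, over 3 spots that disagreed with SDs of 1.98 and 1.12.

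The lists of abundant short and abundant long transcripts had medians further from 0 on these arrays than the ER chaperones. Both lists were chosen with earlier results of these data known, so the contrast is a description and not a test. The long list is not a set apart from the ER, since it holds genes of secreted proteins such as Col12a1. Abundant short transcripts, such as those of Txn1 (2.33 at 12 h, 1.43 at 6 h), S100a10 (2.28 at 12 h, 1.22 at 6 h) and Fth1 (2.18 at 12 h, 1.45 at 6 h), had a median of 1.84 at 12 h, with 22 of 23 higher, and 0.93 at 6 h, with 15 of 23 higher. Abundant long transcripts of fibroblasts, such as those of Ahnak (-2.96 at 12 h, -2.05 at 6 h, on 1 spot), Col12a1 (-2.64 at 12 h, -2.32 at 6 h) and Plec (-2.84 at 12 h, -1.61 at 6 h), had a median of -1.19 at 12 h, with 16 of 23 lower, and -0.92 at 6 h, with 14 of 23 lower. All 23 short transcripts read higher at 12 h than at 6 h, by a median of 0.89, against 0.37 for the ER chaperones and Atf6. Over all genes on both arrays the median difference was 0.12, and of all spots on both arrays 59.7% read higher at 12 h. The difference of 0.37 became 0.20 with both arrays scaled to one spread and 0.21 without centring. That of the short transcripts was not recomputed under these settings, so 0.89 compares only with 0.37. Transcript length and abundance were not measured here, and their part in the values of the group was not tested.

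**Figure D5:**
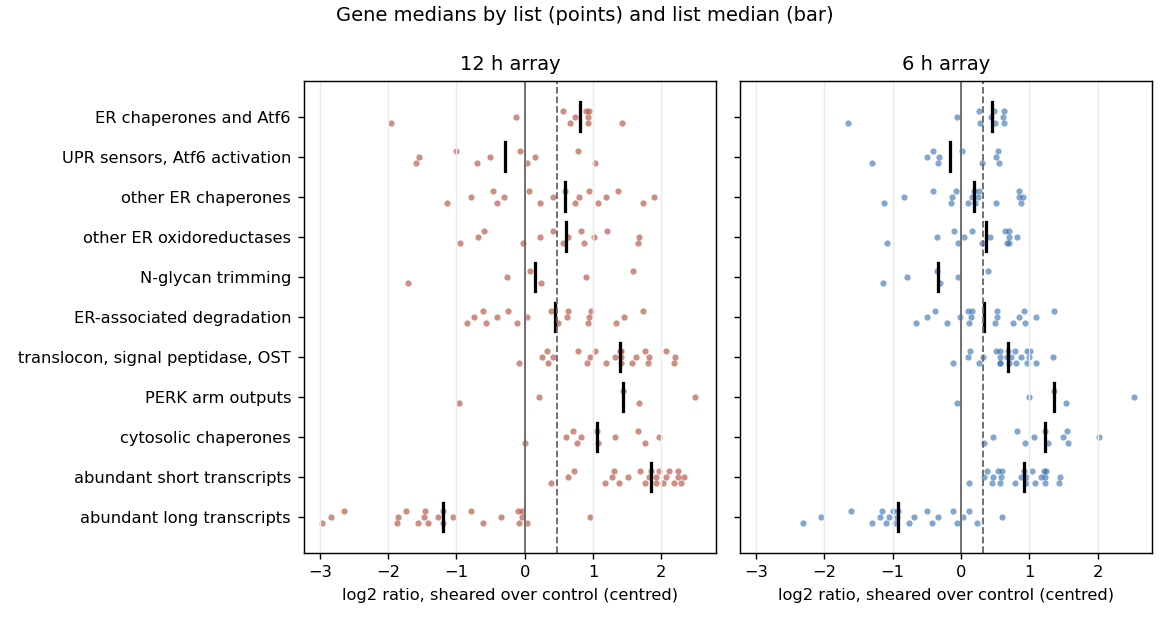
Centred log2 ratio of each gene (points) and list medians (black bars) for the ER chaperones and Atf6 and 10 other lists on the 12 h array (left) and the 6 h array (right); the solid line marks the array median and the dashed line a deposited ratio of 0, left of which the medians of sensors, N-glycan trimming and abundant long transcripts lie on both arrays, as do those of ER-associated degradation at 12 h and of other ER chaperones at 6 h. The median of the ER chaperones and Atf6 is 0.81 at 12 h and 0.46 at 6 h. It lies below those of the translocon list, cytosolic chaperones, PERK outputs and abundant short transcripts on both arrays.

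The values of genes with and without a match to the promoter element overlapped on both arrays. At 12 h the 5 genes of the group with the element had a median of 0.66, from -0.13 for Hsp90b1 to 0.93 for Calr, and the 3 without a match, Pdia3, Dnajb9 and Sdf2l1, lay between 0.90 and 0.94. At 6 h the medians were 0.48 with the element and 0.44 without a match. Outside the group, 14 measured genes hold the element in a promoter. Their median was -0.43 at 12 h (1 higher, 6 lower) and -0.24 at 6 h (1 higher, 6 lower). Among all genes, 24.4% were higher and 33.1% lower at 12 h, and 18.2% higher and 31.3% lower at 6 h. Most of the 14 rest on 1 spot, and of all genes with 1 spot 39.1% were lower at 12 h and 39.6% at 6 h. Of the 14, those also in the ER lists above were picked out after their values were seen. They were Canx, Dnajc3, Syvn1, Derl3 and Ero1b. Canx stood at -0.46 at 12 h and -0.14 at 6 h, Dnajc3 at 0.06 and -0.15, and Syvn1 at -0.40 and -0.01. On 1 spot each, Derl3 stood at -0.84 at 12 h and 0.17 at 6 h, and Ero1b at -0.95 and -1.08. Calnexin, encoded by Canx, is the membrane-bound counterpart of calreticulin.

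With 2 arrays, likeness in pattern says little. The genes nearest to the group's median on both arrays, among 2374 other genes with 3 or more spots, were Ncbp2, Puf60, Lmna, Pink1 and Snx3, at distances of 0.02 to 0.04 log2. As many as 205 genes, or 8.64%, lay within 0.25 of it.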

How the data were processed

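Two-colour spotted arrays of mouse tendon cells, 1 at 12 h and 1 at 6 h of shear, were analysed from the deposited value table. It holds a log2 ratio per spot, which the authors made from their scans; base and direction are not stated and were taken from the range of the values and from the dyes per the labels. Scanner, background correction, normalization and spot filter are not given in the sources used here. Spot intensities were not used here, so depth and signal over background are unknown.

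The median over the 42624 spots of an array was subtracted from each value (missing values: 907 at 12 h, 2848 at 6 h). Of the spots, 21703 carried 1 gene symbol in GEO's platform annotation, 1122 several and 19799 none; symbols were updated by gene ID through RefSeq (GRCm38.p6), which changed 2. Spots with 1 symbol were summarised per gene by their median, which gave 10733 genes for 12 h, 10348 for 6 h and 10288 with both times. Higher and lower mean at least 1.5-fold. No test was possible with 1 array per time point, so counts of the 10 genes are given with the share of all genes past the same fold, and that share is given once for the other lists. All 10 genes were named, with all measured genes of the sensor list and the 5 genes nearest to the group's median. The 3 genes of each other list with the largest mean absolute log2 were named too. Any other is said to be chosen after its values were seen. The members and lists were chosen with earlier results of these data known.

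Alternatives were no centring, centring on named genes or on print blocks of 900 spots, the mean of spots, 2 or more spots per gene, spots with several symbols kept, genes on both arrays, one spread for both arrays, the list without Atf6, folds of 2 and 3, and, added after the data were seen, leaving out the clones spotted at 2 positions, of Hsp90b1 and Pdia3 or of Hspa5 as well. The summaries were tested on simulated data. Promoters were searched by exact letters. Python 3.11.15, pandas 2.3.3, numpy 2.4.6, scipy 1.17.1 and matplotlib 3.10.9 were used.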

Additional observations from a re-analysis of the deposited data

Results flagged for a closer look

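Man1b1, a mannosidase that trims N-glycans in the ER, stood on opposite sides of 0, at 1.58 at 12 h and -1.14 at 6 h. It rests on 1 spot on each array, and the difference was not tested.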

How the results depend on the processing

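No paired analysis was possible because each time point has 1 array. The group's median kept its sign under every alternative run, from 0.34 (no centring) to 0.95 (centred on named genes) at 12 h and from 0.14 to 0.57 under the same settings at 6 h. The count of genes called higher at 12 h, 7, became 1 without centring, 1 at 2-fold and 0 at 3-fold. It became 8 when centred on named genes, 6 with the mean of spots and 6 with 2 or more spots per gene. At 6 h the count of 3 became 0 without centring, 5 when centred on named genes, 1 with print blocks centred, 1 with the mean of spots, 0 at 2-fold and 0 at 3-fold. The count called lower at 12 h, 1, became 2 without centring, when Hsp90b1 joined Atf6, and 0 with 2 or more spots per gene or without Atf6; at 6 h the count of 1 became 0 with 2 or more spots per gene or without Atf6. Among single genes, Hsp90b1 turned positive with the mean of spots at both times (0.21 at 12 h, 0.14 at 6 h), when centred on named genes (0.01 at 12 h, 0.05 at 6 h) and with print blocks centred at 12 h (0.03), and at 12 h its value ran from -0.61 to 0.21. The group's median difference between times, 0.37, ran from 0.20 with one spread for both arrays to 0.44 without Atf6. Leaving out the Hsp90b1 and Pdia3 clones spotted at 2 positions changed no count of the group, and leaving out that of Hspa5 as well brought Hspa5 to 0.53 at 6 h and the 6 h count from 3 higher to 2. Both were chosen after the data were seen. Spot brightness is unknown, so dim spots cannot be told from bright ones, and each value rests on 1 hybridisation.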

Other observations

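The spots of one clone did not read more alike than different clones of one gene. Over 547 clones with exactly 2 measured positions on the 12 h array, the median gap between positions was 0.91 log2. For 495 such clones at 6 h it was 0.66. For 2 different clones of a gene the median gap was 0.49 at 12 h (5423 genes) and 0.44 at 6 h (5260 genes). Gaps over 1 log2 made up 46.4% of same-clone pairs at 12 h and 35.96% at 6 h, against 28.3% and 22.8% of pairs of different clones. Clones spotted more than once were matched by their sequence accession in the platform annotation and are not a sample of all clones. Within the ER chaperones, the Hspa5 clone spotted at 2 positions differed by 0.19 at 12 h and 0.11 at 6 h, the Pdia3 clone by 1.61 and 0.73, and the Hsp90b1 clone by 2.24 and 1.07.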
